A study of Homo sapiens with 16 samples.

Results

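DNA methylation is written, copied and removed by a small set of enzymes, and the transcripts of 7 of their genes were followed here in bladder cancer (BC) cells exposed to CM-1758, a histone deacetylase (HDAC) inhibitor. The genes were chosen by symbol, as DNMT1, UHRF1, DNMT3A, DNMT3B, TET1, TET2 and TET3, and all 7 were found among the 35993 symbols of the count table and among the 21297 genes that passed the filter on low counts. The study profiled 4 human BC cell lines, 253J, J82, RT112 and TCCSUP, all labelled as wild type. Cells of each line received CM-1758 for 48 h at the line's own IC50, or DMSO at 0.01% as vehicle control. The study's figure legends call the control cells untreated. Each of the 8 groups had 2 libraries from independent replicates. TCCSUP was grown in EMEM and the others in DMEM, so line and medium cannot be told apart for TCCSUP, and the doses differed between lines.

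DNMT1 copies methylation onto the new DNA strand after replication, and UHRF1 brings it there by binding hemimethylated CpG sites and marking histone H3 with ubiquitin. DNMT3A and DNMT3B place methyl groups on DNA that had none. TET1, TET2 and TET3 oxidise 5-methylcytosine, which allows the mark to be lost through replication or base excision repair. In urothelial tumours, as in many others, promoter methylation of silenced genes and general loss of methylation elsewhere are well known. Neither methylation nor protein was measured in these libraries, and in bulk RNA a smaller share of cells expressing a gene cannot be told apart from less RNA per cell.

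Values are CPM, counts scaled to a common library total with TMM factors, a scale that compares a gene between libraries but not genes with each other, since gene length is not corrected for. A gene was called lower or higher where the adjusted p of edgeR's quasi-likelihood test, corrected over all 21297 genes, was under 0.05. Whether the control and treated libraries of a line overlapped is given below as a description only. The share of all tested genes without overlap was not taken, so a lack of overlap is no test of a gene. Libraries held 22506431 to 32537104 counts. Epithelial markers were above 3 counts in every group, while UPK2 was at or under 3 counts in 253J, J82 and TCCSUP and UPK3A in every group but TCCSUP with CM-1758. KRT5 was likewise at or under 3 counts in 253J, J82 and treated TCCSUP. Summed marker levels also moved with treatment, and their part in the results was not tested. The sum of 6 epithelial markers was 1227 to 1357 CPM in control and 369 to 466 CPM in treated TCCSUP, and 3178 to 4330 against 1851 to 2342 CPM in 253J. In RT112 the sum of 7 urothelial markers was 1809.8 to 2062 CPM in control and 729.8 to 764 CPM with CM-1758. That of 2 mesenchymal markers was 4.71 to 5.56 against 34.0 to 37.3 CPM there. In 253J, J82 and TCCSUP the opposite was seen, with the urothelial sum higher and the mesenchymal sum lower with CM-1758. In TCCSUP the urothelial sum was 92.6 to 101 against 128 to 143 CPM and the mesenchymal sum 535 to 640 against 218 to 258 CPM. The summed level of 4 leukocyte markers stayed between 0 and 20.9 CPM and that of 3 endothelial markers between 0 and 6.02 CPM.

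None of the 7 genes was called higher in any line, and the number called lower ranged from 3 to 6. In 253J, all 6 genes above 3 counts were lower, against 22.4% of all genes tested that were lower and 28.8% that were higher. In TCCSUP, 5 of 7 were lower, against 22.1% lower and 32% higher. In J82, 3 of 7 were lower, against 18.5% lower and 24% higher, and in RT112 also 3 of 7, against 20.2% lower and 27.4% higher. Their median on the log2 fold change scale was −1.40 in 253J and −0.97 in TCCSUP, where all tested genes had 0.10 and 0.20, and of −0.46 in RT112 and −0.23 in J82, where all tested genes had 0.12 and 0.05. Scaling by library size alone moved the median of all genes up by 0.27 in 253J, 0.15 in RT112 and 0.31 in TCCSUP. Under it TET2 and TET3 in 253J and DNMT3B in TCCSUP were no longer called. Shares of all tested genes were taken with TMM only, so counts under library size alone, here and below, have no share to be set against.

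**Figure D1:**
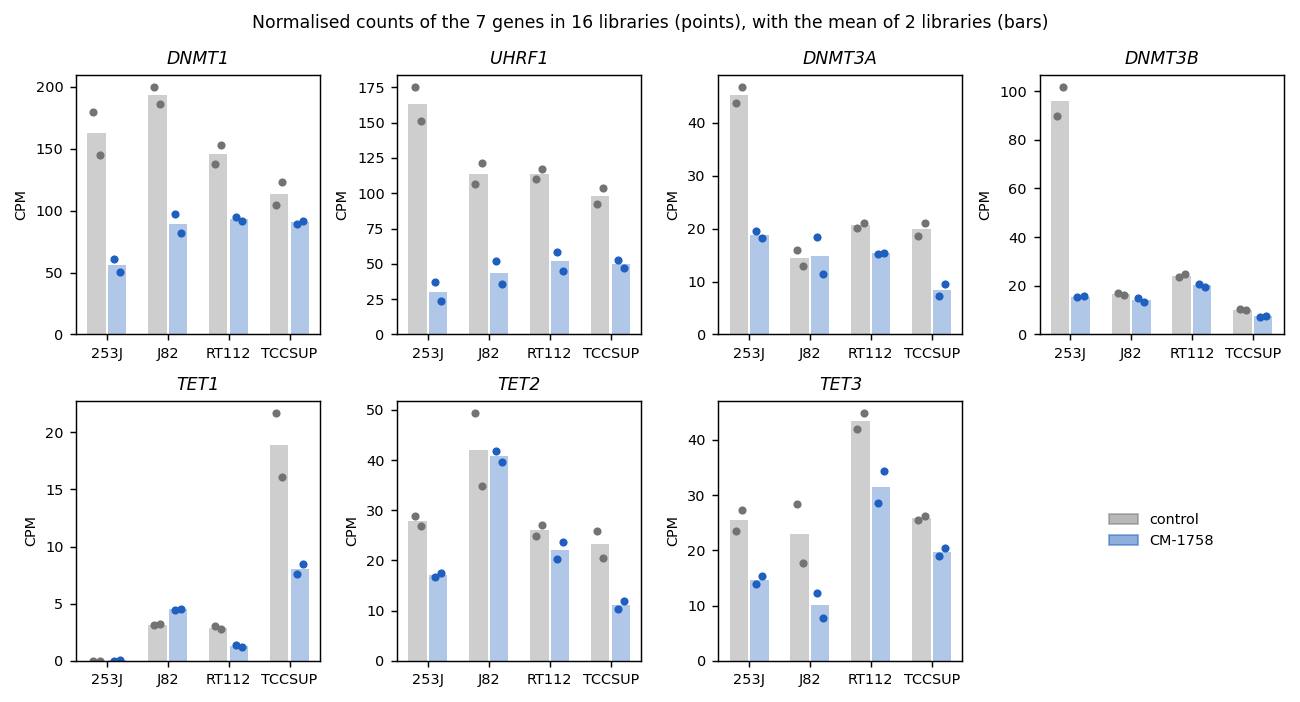
Normalised level in CPM (y axis, linear, from 0, a separate scale for each gene) of the 7 genes in the control (grey) and CM-1758 (blue) libraries of the 4 lines (x axis), with points for single libraries and bars for the mean of 2. UHRF1 was below its control libraries in all 4 lines, DNMT3B dropped from 95.8 to 15.5 CPM in 253J, and TET1 was at or near 0 throughout 253J.

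In the fit over all 16 libraries, UHRF1 was the only one of the 7 that fell in all 4 lines, a pattern that 6.01% of tested genes shared. In 253J its level was 175 and 151 CPM in the control libraries and 37.1 and 23.7 CPM with CM-1758. The J82 libraries stood at 106 and 121 CPM without the compound and at 51.7 and 36.0 CPM with it. In RT112 control libraries held 110.4 and 117 CPM and treated ones 58.5 and 45.0 CPM, and in TCCSUP the values were 92.2 and 103 CPM against 52.8 and 47.3 CPM. Treated and control libraries did not overlap in any line, and the highest treated library of all, in RT112, lay below the lowest control library, in TCCSUP. The log2 fold change was −2.43 (SE 0.22, adjusted p = 4.92e-07) in 253J, where 2.47% of tested genes had a lower one. It was −1.38 (SE 0.21, adjusted p = 1.11e-04) in J82, −1.14 (SE 0.21, adjusted p = 4.60e-04) in RT112 and −0.97 (SE 0.21, adjusted p = 0.00132) in TCCSUP. In percent of control, UHRF1 was left at 18.6% in 253J (95% interval 13.5 to 25.8%), 38.5% in J82, 45.5% in RT112 and 51.2% in TCCSUP (37.5 to 69.9%). The effect differed between the lines (interaction over 4 lines, edgeR adjusted p = 0.00316): the fold change in 253J was lower than in each of the others, with log2 differences from −1.05 against J82 (adjusted p = 0.0144) to −1.46 against TCCSUP (adjusted p = 0.00180), while no pair among J82, RT112 and TCCSUP passed the test.

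Because UHRF1 is a known target of E2F factors, which drive genes of the S phase, the RefSeq promoter sequences (GRCh38.p14) of all 7 genes were searched for letters of the kind E2F factors bind. TTTCGCGC, TTTGGCGC and TTTCCCGC were looked for on both strands in the 250 bases before each of 18 annotated starts. Matches lay before 2 of the 3 UHRF1 starts and before no start of the other 6 genes, while 2.32% of the 35116 windows in the table held at least one of the 3. The matches are shown with their neighbouring bases, in 5′ to 3′ direction on the strand of the gene, with the matched letters in capitals.
UHRF1, chr19:4909476-4909500, plus strand: gccgagttttcGCGGGAAAaaaatc
UHRF1, chr19:4909973-4910002, plus strand: cccgagcccgaTTTCGCGCgccctgagttc
The first holds TTTCCCGC read on the opposite strand, 14 to 7 bases before its start, a motif found in 1.39% of windows. The second holds TTTCGCGC on the strand of the gene, 160 to 153 bases before another start, a motif found in 0.439% of windows. TTTGGCGC, found in 0.55% of windows, was not among the letters before any of the 7 genes. The matches do not overlap each other, binding was not measured, and a match in these letters does not show a bound site. Nor does the lack of a match show that a gene has no such site. UHRF1 prompted the search, so matches there are no test, and their part in its lower level was not tested.

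DNMT1, the partner that UHRF1 recruits, was lower in 3 lines. In 253J it was counted at 179.95 and 145 CPM in control and at 60.6 and 50.8 CPM in treated libraries. In J82 the control libraries read 199.9 and 186 CPM and the treated ones 97.4 and 81.6 CPM, and in RT112 the values were 138 and 153 CPM against 94.98 and 91.5 CPM. In these 3 lines the 2 arms were well apart. The TCCSUP libraries held 104 and 123 CPM without and 89.1 and 91.7 CPM with CM-1758, which do not overlap but lie close together. The log2 fold change was −1.54 (SE 0.15, adjusted p = 1.14e-06) in 253J, −1.11 (SE 0.15, adjusted p = 3.81e-05) in J82 and −0.64 (SE 0.15, adjusted p = 0.00263) in RT112. In TCCSUP it was −0.33 (SE 0.15) and missed the threshold (adjusted p = 0.0769), with 79.6% of the control level left and a 95% interval of 63.8 to 99.4%. With each line fitted on its own, the TCCSUP value passed (−0.34, adjusted p = 0.0172 in edgeR and −0.32, adjusted p = 0.0212 in DESeq2).

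DNMT1 effects were graded across the lines (interaction adjusted p = 0.00113). Its fold change in 253J was lower than in RT112 (difference −0.90, adjusted p = 0.00477) and in TCCSUP (−1.22, adjusted p = 5.66e-04), and that of J82 was lower than that of TCCSUP (−0.78, adjusted p = 0.0155). The neighbours in this order, 253J and J82, J82 and RT112, and RT112 and TCCSUP, did not differ by this test. After CM-1758 the DNMT1 level of J82 (89.5 CPM), RT112 (93.3 CPM) and TCCSUP (90.4 CPM) differed by at most 0.06 on the log2 scale, with 95% intervals of each pair within −0.38 to 0.36, and 253J (55.7 CPM) was below each of them (log2 difference −0.74 to −0.68, adjusted p at most 0.00139). Among controls the order was J82, 253J, RT112 and TCCSUP, with 193, 162, 146 and 114 CPM. Neither the difference between J82 and 253J nor that between 253J and RT112 nor that between RT112 and TCCSUP passed the test.

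DNMT3B gave the largest fold change of the 7 genes, in 253J, and small ones elsewhere. The 253J control libraries contained 89.9 and 102 CPM, and the treated ones 15.3 and 15.8 CPM. This is a log2 fold change of −2.62 (SE 0.13, adjusted p = 4.09e-09), or 16.2% of control (95% interval 13.4 to 19.7%), and 1.91% of tested genes had a lower value. In J82 the levels were 16.9 and 16.2 CPM against 14.8 and 13.3 CPM, in RT112 23.5 and 24.8 CPM against 20.8 and 19.6 CPM, and in TCCSUP 10.4 and 10.1 CPM against 7.18 and 7.75 CPM. In J82, RT112 and TCCSUP the treated libraries lay below the control libraries of their line, but by little. How many of all genes were separated in this way was not counted. The log2 fold change was −0.23 in J82 (adjusted p = 0.160), −0.26 in RT112 (adjusted p = 0.103) and −0.46 in TCCSUP, where it passed (SE 0.14, adjusted p = 0.0101). Without control replicate 1 or CM-1758 replicate 1 of TCCSUP the value remained −0.44 or −0.41 but was not called (adjusted p = 0.0565 and 0.0734), nor was it with DESeq2 on TCCSUP alone (−0.45, adjusted p = 0.110). The difference between lines had the smallest interaction p of the 7 (adjusted p = 1.89e-07), and 253J was lower than each other line (differences −2.39 to −2.17, adjusted p at most 8.71e-07), while no pair of the other lines differed.

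DNMT3B was also the gene with the widest control range between lines among those above 3 counts in all of them. The 253J level was 95.8 CPM, that of RT112 24.1 CPM, that of J82 16.6 CPM and that of TCCSUP 10.3 CPM, and each neighbour in this order differed from the next (adjusted p at most 0.00195). The highest mean was 9.34 times the lowest. With CM-1758 the range was 2.70 times, from 20.2 CPM in RT112 to 7.47 CPM in TCCSUP, and 253J, at 15.5 CPM, no longer differed from J82, at 14.1 CPM (log2 difference 0.14, 95% interval −0.13 to 0.42, adjusted p = 0.369).

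DNMT3A, the other de novo enzyme, was lower in 253J and TCCSUP. Its control libraries read 43.7 and 46.8 CPM in 253J and its treated ones 19.5 and 18.2 CPM, and in TCCSUP the values were 18.6 and 21.0 CPM against 7.22 and 9.48 CPM. In both lines the treated libraries were far below the control libraries. The log2 fold change was −1.26 (SE 0.20, adjusted p = 7.88e-05) in 253J and −1.25 (SE 0.21, adjusted p = 1.34e-04) in TCCSUP, a difference of −0.01 with a 95% interval of −0.63 to 0.60. In J82 the control libraries, at 15.9 and 12.9 CPM, lay between the treated ones, at 18.4 and 11.4 CPM. The J82 fold change was 0.05 (SE 0.20, adjusted p = 0.923), which leaves 76.8 to 139% of control within its 95% interval. RT112 libraries stood at 20.2 and 21.1 CPM in control and at 15.2 and 15.5 CPM with CM-1758, without overlap, and the fold change of −0.43 (SE 0.20) missed the threshold (adjusted p = 0.0884), but passed with RT112 fitted alone (adjusted p = 0.0198 in edgeR and 0.0475 in DESeq2). The effect differed between lines (interaction adjusted p = 0.00243), with 253J and TCCSUP each lower than J82 and than RT112 (adjusted p at most 0.0437). In controls 253J, at 45.2 CPM, was above each other line by 1.13 to 1.65 on the log2 scale (adjusted p at most 1.60e-04).

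TET1 was the gene whose presence separated the lines most. In 253J it had 0 counts in 3 libraries and 3 counts in CM-1758 replicate 3, so no fold change is given. The TCCSUP controls held 548 and 421 counts (21.7 and 16.1 CPM) and the treated libraries 203 and 215 counts (7.60 and 8.46 CPM). RT112 held 92 and 82 counts (3.01 and 2.78 CPM) without and 36 and 32 counts (1.41 and 1.22 CPM) with CM-1758. In both lines the arms did not overlap, and TET1 fell, with a log2 fold change of −1.23 in TCCSUP (SE 0.28, adjusted p = 0.00188) and −1.14 in RT112 (SE 0.32, adjusted p = 0.00929). The RT112 call was lost without CM-1758 replicate 2 of that line (−1.04, adjusted p = 0.0648). J82 libraries had 82 and 89 counts (3.11 and 3.23 CPM) in control and 124 and 135 (4.44 and 4.57 CPM) with the compound, with no overlap and with the treated ones above, but the fold change of 0.50 (SE 0.29, 95% interval −0.12 to 1.13) was not called (adjusted p = 0.185). Over J82, RT112 and TCCSUP the effect differed (adjusted p = 0.00606): J82 was above RT112 by 1.64 (adjusted p = 0.0142) and above TCCSUP by 1.74 (adjusted p = 0.00661). Against a floor of 3 counts in each 253J control library, the control level was at least 164-fold higher in TCCSUP, at least 27.6-fold higher in J82 and at least 25.2-fold higher in RT112. J82 and RT112 were also below TCCSUP (log2 differences −2.57 and −2.71, adjusted p = 6.01e-06 and 2.57e-06), and did not differ from each other by the test (0.13, 95% interval −0.50 to 0.77).

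TET2, which is often mutated in blood cancers, fell in 253J and TCCSUP. In 253J the control libraries showed 28.9 and 26.8 CPM and the treated ones 16.8 and 17.4 CPM. In TCCSUP the control libraries showed 25.9 and 20.6 CPM and the treated ones 10.3 and 12.0 CPM, again without overlap. The log2 fold change was −0.70 in 253J (SE 0.17, adjusted p = 0.00335) and −1.06 in TCCSUP (SE 0.18, adjusted p = 1.61e-04). RT112 held 24.9 and 27.1 CPM against 20.3 and 23.7 CPM (−0.24, adjusted p = 0.271). J82 controls were far apart, at 49.3 and 34.8 CPM, and enclosed the treated libraries at 41.9 and 39.7 CPM (−0.04, 95% interval −0.41 to 0.32, adjusted p = 0.902). The effect differed between lines (interaction adjusted p = 0.0105), and the fold changes of J82 and RT112 were above that of TCCSUP by 1.01 (adjusted p = 0.00783) and 0.82 (adjusted p = 0.0221). With CM-1758 the level was highest in J82 (40.8 CPM) and lowest in TCCSUP (11.1 CPM), with RT112 (22.01 CPM) and 253J (17.1 CPM) between them, and the last pair did not differ (adjusted p = 0.0881).

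TET3 fell in J82 and 253J. In J82 the control libraries had 28.4 and 17.6 CPM and the treated ones 12.3 and 7.75 CPM. In 253J the control libraries had 23.6 and 27.3 CPM and the treated ones 14.0 and 15.35 CPM. Neither line had overlapping arms, although the J82 replicates of each arm were far apart. The log2 fold change was −1.20 in J82 (SE 0.23, adjusted p = 5.85e-04) and −0.79 in 253J (SE 0.22, adjusted p = 0.00741). The 253J call was lost without control replicate 3 (−0.69, adjusted p = 0.0563) or CM-1758 replicate 1 (−0.73, adjusted p = 0.0539). RT112, with the highest control level of 41.9 and 44.9 CPM, had 28.6 and 34.3 CPM after treatment (−0.46, SE 0.21, adjusted p = 0.0895), and TCCSUP had 25.6 and 26.3 CPM against 19.0 and 20.4 CPM (−0.40, SE 0.22, adjusted p = 0.140). Both values passed with each line fitted alone (edgeR adjusted p = 0.0129 and 0.0119). TET3 was, in the fit over all 16 libraries, the only one of the 7 whose effect was not shown to differ between the lines (interaction adjusted p = 0.126), and all 4 of its fold changes were below 0.

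**Figure D2:**
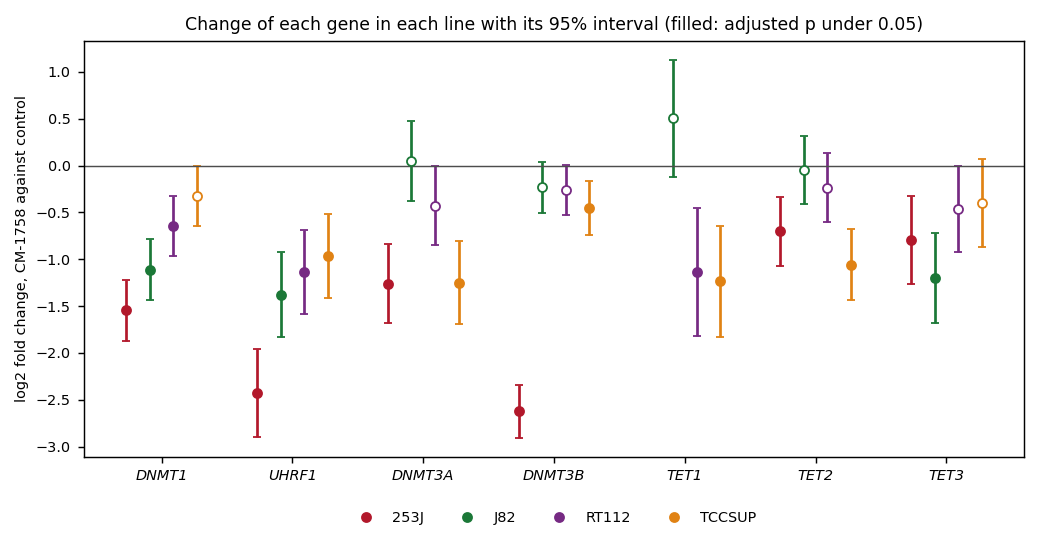
Log2 fold change of CM-1758 against control (y axis) for each gene (x axis) in each line (colours), with its 95% interval as the error bar, from the edgeR fit over 16 libraries; filled points passed an adjusted p of 0.05, and TET1 in 253J is not drawn. The DNMT3B and UHRF1 values of 253J, −2.62 and −2.43, are the lowest, and the J82 values of DNMT3A, TET1 and TET2, at 0.05, 0.50 and −0.04, have intervals that include 0.

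Across the 7 genes, 6 had an effect that differed between the lines, against 51.9% of all tested genes. All 7 differed in control level between the lines, against 78.8% of tested genes, and all 7 in the level with CM-1758, against 83.7%. At the stricter limit of an adjusted p under 0.01 and a log2 fold change below −2, 2 genes remained in 253J, UHRF1 and DNMT3B, against 3.5% of tested genes. In J82, RT112 and TCCSUP none of the 7 passed it, against 1.24%, 1.39% and 3.31% of tested genes.

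Transcripts of proteins that act with UHRF1 and DNMT1 at replicated DNA were mostly lower outside TCCSUP. Of 11 such genes tested, 253J had 10 lower, RT112 had 7, J82 had 6 and TCCSUP had 3, while 2 were higher in TCCSUP, DPPA3 and, named after its value was seen, CDCA7L. The share of all tested genes that were lower was 22.4%, 20.2%, 18.5% and 22.1% in these lines, and the TCCSUP count was close to it. LIG1, the DNA ligase whose methylated form UHRF1 binds, was lower in all 4 lines, from −1.66 in 253J to −0.70 in TCCSUP (adjusted p at most 5.80e-04). TRIM28, a corepressor that assembles silencing complexes on methylated imprinted regions, was also lower in all 4, from −1.07 in 253J to −0.74 in TCCSUP (adjusted p at most 7.02e-04). DPPA3, which keeps UHRF1 off chromatin in germ cells, had 0 counts in all 8 control libraries and 11 and 9 counts in treated TCCSUP, at least 3.28-fold higher than the floor of 3 counts per library. It passed the low count filter only through treated TCCSUP, so its call there carries no weight for the list. With library size alone as the scale 7, 3, 6 and 2 genes were lower in 253J, J82, RT112 and TCCSUP, with 4 higher in TCCSUP and 1 in J82. The share of all genes under that scale was not taken. The median log2 fold change of the list, with genes at the floor set to their bound, was −0.87, −0.45, −0.54 and −0.18 in 253J, J82, RT112 and TCCSUP.

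DNMT1 and UHRF1 are themselves most abundant in cells in S phase, so 24 genes of S phase and proliferation were set beside them. In 253J, 21 were lower and 1 higher, in J82 17 were lower and 1 higher, and in RT112 17 were lower and 0 higher, against 22.4%, 18.5% and 20.2% of all tested genes lower and 28.8%, 24% and 27.4% higher. With library size alone as the scale TCCSUP had 8 lower and 8 higher. With TMM it had 9 lower and 6 higher, against 22.1% and 32% of all tested genes. The 6 higher, named after their values were seen, were E2F2, CCNE1, CDC6, MCM2, MCM6 and PRIM1. Of the other MCM genes in TCCSUP, MCM3 (0.13), MCM4 (−0.11) and MCM5 (−0.05) were not called and MCM7 was lower (−0.47). The list medians were −2.04, −0.85, −0.92 and −0.08, in the order 253J, J82, RT112 and TCCSUP, DNMT1 read −1.54, −1.11, −0.64 and −0.33 in that order, and UHRF1 −2.43, −1.38, −1.14 and −0.97. CCNA2, the cyclin of S and G2 phase, was lower in all 4 lines, with log2 fold changes of −2.22, −1.64, −1.09 and −2.85 in that order (adjusted p at most 0.00134). TYMS, which makes thymidylate, was lower in all 4 (−1.87 to −1.14, adjusted p at most 0.00512), as was MCM7, a subunit of the replicative helicase (−2.29 in 253J to −0.47 in TCCSUP, adjusted p at most 0.0285). CCNE1, the cyclin that opens S phase, had the highest mean fold change of the list, with 1.03 in TCCSUP (adjusted p = 1.80e-05) and −0.45 in RT112 (adjusted p = 0.0139). The part of S phase content in the DNMT1 and UHRF1 values was not tested.

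**Figure D3:**
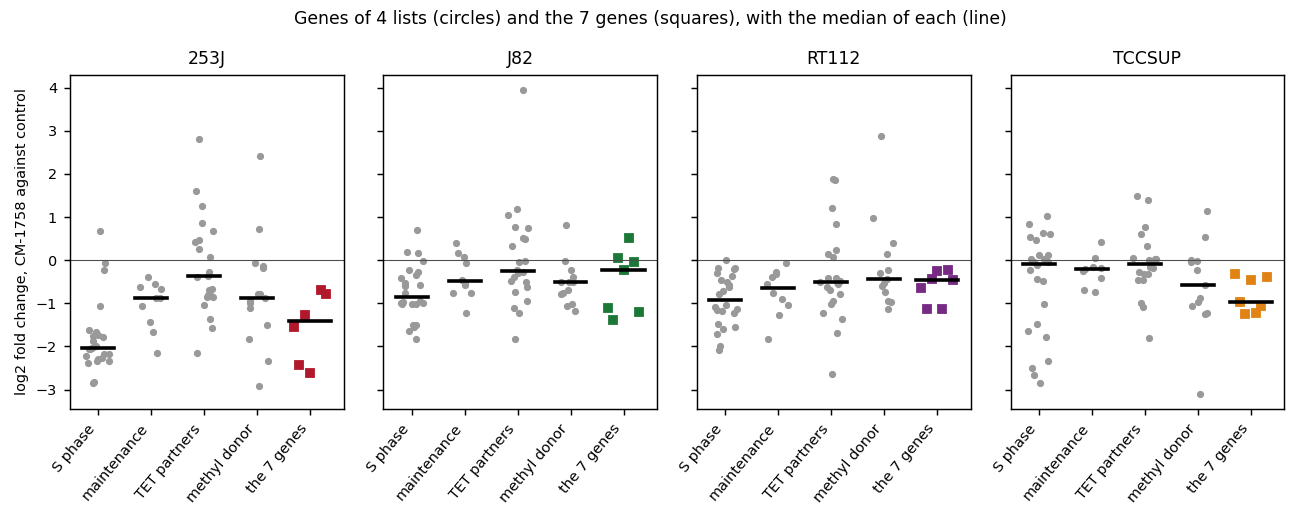
Log2 fold change of CM-1758 against control (y axis) in each line (panels) for single genes (grey circles, spread sideways only to be seen) of 4 lists and for the 7 genes (coloured squares), with the median of each as a black line; genes with at most 3 counts in both libraries of an arm are left out. The S phase median moves from −2.04 in 253J to −0.08 in TCCSUP, where the median of the 7 genes was −0.97. The S phase list was split in TCCSUP, with 9 genes lower (CCNA2 at −2.85) and 6 higher (CCNE1 at 1.03). Medians drawn for lists with genes at the floor differ from those in the text, which keep such genes at a bound.

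Regulators of de novo methylation moved in both directions. Of 8 tested, 3, 2, 2 and 4 were lower and 2, 3, 3 and 4 higher in 253J, J82, RT112 and TCCSUP, with all tested genes at 18.5% to 22.4% lower and 24% to 32% higher, so that several of these counts are near the general share. NSD1, which places the H3K36 dimethyl mark that DNMT3A reads, was lower in all 4 lines (−2.35 to −1.41, adjusted p at most 3.04e-05). BEND3, a CpG binding repressor, was lower in all 4 (−1.38 to −0.83, adjusted p at most 0.00918). KDM1B, an H3K4 demethylase needed for de novo methylation in oocytes, was higher in all 4 by 1.20 to 1.91 (adjusted p at most 3.64e-06). TRDMT1, a DNMT relative that methylates transfer RNA, was higher in all 4 by 0.85 to 1.68 (adjusted p at most 0.00168). ZFP57, which guards imprints, had 6 and 11 counts in TCCSUP control and 180 and 179 with CM-1758, and at most 4 counts in any library of the other lines. It passed the low count filter only through treated TCCSUP, so its call there carries no weight for the list. The list medians, with genes at the floor set to their bound, were −0.14, −0.09, −0.01 and 0.23.

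Genes that act after or with the TET enzymes were more often lower than higher in 253J, J82 and RT112. Of 22 tested, 12 were lower and 7 higher in 253J, 9 and 5 in J82, 14 and 4 in RT112 and 5 and 6 in TCCSUP. Of all tested genes 22.4% were lower and 28.8% higher in 253J, 18.5% and 24% in J82, 20.2% and 27.4% in RT112 and 22.1% and 32% in TCCSUP, where the count of lower genes was near that share. With library size alone the split was 8 to 8, 6 to 5, 10 to 5 and 3 to 9. LIG3, the ligase that closes base excision repair, was lower in all 4 lines (lowest in 253J, −1.36, adjusted p at most 5.38e-05), as was OGT, the glycosyltransferase that binds TET2 and TET3 (−1.09 to −0.51, adjusted p at most 0.0115). CXXC4, which binds TET2 and lowers its protein, was higher in all 4 lines, by 1.60 on the log2 scale in 253J, 3.95 in J82 and 1.85 in RT112, and from 0 counts to 27 and 33 counts in TCCSUP, at least 9.89-fold over the floor (adjusted p at most 6.31e-04). NEIL3, a glycosylase of oxidised bases, was lower in 253J (−2.15), TCCSUP (−1.81) and J82 (−0.95, adjusted p at most 0.00185 in these), with −0.56 in RT112 (adjusted p = 0.0518). The list medians, with genes at the floor set to their bound, were −0.38, −0.24, −0.51 and −0.01.

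Readers of methylated CpG sites and their relatives were called about as often as genes in general in 253J and J82. MBD5, the gene called higher in J82, and MBD6, among those called higher in 253J, are relatives whose binding of methylated DNA was not considered here. Of 9 tested, 2, 3, 2 and 5 were lower and 2, 1, 0 and 1 higher in 253J, J82, RT112 and TCCSUP, and in 253J the split was 1 lower and 3 higher with library size alone. With TMM, 22.4%, 18.5%, 20.2% and 22.1% of all tested genes were lower and 28.8%, 24%, 27.4% and 32% higher in these lines. The list medians were 0.02, −0.21, −0.22 and −0.66. MBD3, a subunit of the NuRD complex that carries HDAC1 and HDAC2 and a poor binder of methylated DNA itself, was lower in all 4 lines, with −0.53 in 253J (adjusted p = 0.00859) and −1.74 to −1.40 in the others (adjusted p at most 4.63e-06). MBD1, a reader and repressor, was higher in 253J by 1.78 (adjusted p = 3.02e-07) and in TCCSUP by 0.72 (adjusted p = 0.00102), with 0.02 in J82 and 0.14 in RT112.

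Genes that make, use or recycle S-adenosylmethionine, the methyl donor of the DNMT enzymes, and genes of the folate cycle that feeds it were lower more often than higher. Of 16 tested, 9, 10, 7 and 7 were lower and 2, 2, 5 and 5 higher in 253J, J82, RT112 and TCCSUP, and in RT112 the split turned to 5 lower and 6 higher with library size alone. With TMM, all tested genes had 22.4%, 18.5%, 20.2% and 22.1% lower and 28.8%, 24%, 27.4% and 32% higher. The TMM counts of higher genes in RT112 and TCCSUP were thus near the general share. They include GNMT, named after its values were seen, which had at most 2 counts in any control library. It passed the low count filter only through treated libraries, so its calls in RT112 and TCCSUP carry no weight for the list. The list medians, with genes at the floor set to their bound, were −0.82, −0.50, −0.26 and −0.13. MAT2A, the S-adenosylmethionine synthetase of most tissues, was lower in all 4 lines (−1.07 to −0.78, adjusted p at most 0.00362). Its liver counterpart MAT1A was higher in all 4 from very few counts, by 2.42 in 253J (adjusted p = 3.70e-04), and from 0 counts in all control libraries of the others to 14 and 35 in J82, 39 and 45 in RT112 and 104 and 116 in TCCSUP, at least 7.56-fold, 16.2-fold and 36.2-fold over the floor. The serine hydroxymethyltransferases SHMT1 and SHMT2, which feed one-carbon units into the folate cycle, were lower in all 4 lines (−1.19 to −0.44, adjusted p at most 0.0234, and −1.82 to −0.79, adjusted p at most 6.68e-04).

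Germline genes whose promoters are methylated in somatic cells were often higher in TCCSUP, mostly from low counts. Of 16 tested, TCCSUP had 12 higher, RT112 had 7, 253J had 4 and J82 had 2, while 2 were lower in TCCSUP. The low count filter looked at all 8 groups, so a gene could pass it through a single group where it was high. TDRD1, with 27 and 21 counts in treated TCCSUP and 0 in every other library, passed only in this way, as did RBM46. The TCCSUP count was thus partly set by the filter and is no test of the list. The same holds for the RT112 count, where MAEL and BRDT, named after their values were seen, passed only through treated libraries. In RT112 both had 0 counts in control, with 9 and 6 for MAEL and 8 and 14 for BRDT with CM-1758. In J82, 9 of the 16 had at most 3 counts in every library. Of all tested genes 32%, 27.4%, 28.8% and 24% were higher in these lines, so the counts of 253J and J82 were not above the general share. TUBA3C, named after its values were seen, was the gene of the list with the most counts, from 335 and 400 to 849 and 862 in TCCSUP (adjusted p = 0.00602). The list medians, with genes at the floor set to their bound, were 0.86, 0.00, 0.67 and 2.54. RBM46, an RNA-binding protein of germ cells, had 0 counts in all control libraries and 47 and 30 counts in treated TCCSUP, at least 12.6-fold over the floor. It had at most 7 counts in any treated library of the other lines. DAZL, another germ cell RNA-binding protein, had 8 and 6 counts in TCCSUP control libraries and 0 with CM-1758, at least 2.37-fold lower (adjusted p = 0.0159). Methylation at the promoters of these genes was not measured.

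The genes with the most similar course over the 16 libraries were found by Pearson's r of log2 CPM over 14201 genes, as a description, since the libraries share lines and treatment. DNMT1 was nearest to RNASEH2A (0.96) and TIMELESS (0.94). UHRF1 was nearest to LOC728688 (0.98), SUV39H1 (0.98) and SRSF1 (0.97), and LOC728688 is a pseudogene for which shared reads were not tested. DNMT3A was nearest to SLC35F5 (0.95), RDH10 (0.95) and LAPTM4B (0.95), and DNMT3B to ITM2B (0.96), SPATA20 (0.94) and the small nucleolar RNA SNORA16A (0.93). TET1 ran most like ADAMTS16 (0.98), CARD16 (0.98) and SCARA3 (0.98), TET2 like PXDC1 (0.95), BBX (0.94) and TMX2 (0.93), and TET3 like PCNT (0.96), ZNF587B (0.96) and EIF4ENIF1 (0.96). The antisense gene TET2-AS1 had at most 4 counts in any library, and the pseudogenes DNMT3AP1 and TET1P1 had 0 in every one.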

How the data were processed

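Total RNA of 16 libraries (ribosomal RNA removed, stranded) was sequenced, and the authors deposited 1 table of raw counts per gene symbol. The submitters' processing notes name HISAT2, StringTie and GRCh37, with no versions. How the counts were made from StringTie and whether strand was used are not given in the sources used here. Groups came from the sample titles and labels.

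Counts were tested with edgeR 4.0.16 in R 4.3.3 (quasi-likelihood test, filterByExpr, TMM) over 8 groups, with Benjamini-Hochberg adjustment over 21297 genes. The standard error is the log2 fold change over the square root of F. Over 4 lines, 3 contrasts gave the interaction, and 6 pairs of lines were compared for each gene. DESeq2 1.42.0, other scalings, filters, a replicate block and leaving out each library were alternatives. Libraries of a group differed by more than sampling noise (chi-square per degree of freedom 11.7 to 73.1). Same-numbered libraries deviated together only weakly (r 0.02 to 0.22, not all over 0.1), so the numbers were not taken as pairs. On simulated data with 20409 genes, 55 of 100 genes changed 2-fold and 91 of 100 changed 4-fold in 1 line were recovered. Only genes with a mean count over 100 were changed. So few changes make the adjustment stricter than in the real fits, where 18.5% to 22.4% of genes were lower. The recovered shares therefore do not measure how many changes were found or missed here.

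Named genes of each list were those called the same way in all 4 lines (at most 6), plus those with the highest and lowest mean fold change, and 3 nearest genes for each of the 7. A few genes that this rule names are not reported here. Members and lists were chosen with earlier results of these data known. A floor of 3 counts per library was used for bounds, which cover counting error only. Promoter windows came from RefSeq (GRCh38.p14), with all 7 symbols matched.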

Additional observations from a re-analysis of the deposited data

Results flagged for a closer look

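In 6 of the 7 genes the effect of CM-1758 differed between the cell lines by a test of the difference itself (edgeR's quasi-likelihood interaction test, adjusted over 21297 genes), in a table where 51.9% of tested genes did so. DNMT3B had the smallest adjusted p, 1.89e-07, and its log2 fold changes were −2.62 in 253J and −0.46 to −0.23 elsewhere. DNMT1 (adjusted p = 0.00113) ranged from −1.54 in 253J to −0.33 in TCCSUP, and UHRF1 (adjusted p = 0.00316) from −2.43 in 253J to −0.97 in TCCSUP. DNMT3A (adjusted p = 0.00243) read −1.26 in 253J and −1.25 in TCCSUP but 0.05 in J82. TET2 (adjusted p = 0.0105) read −1.06 in TCCSUP and −0.04 in J82. TET1, compared over J82, RT112 and TCCSUP only because 253J had at most 3 counts in any library, had an adjusted p of 0.00606, with 0.50 in J82 and −1.14 and −1.23 in RT112 and TCCSUP. Dose and, for TCCSUP, medium differed with the line and cannot be told apart from it. No group had 4 libraries, so single libraries were not examined for standing apart within a group.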

How the results depend on the processing

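Of the single gene values under other scalings, tools, filters and the replicate block, 218 kept direction and side of the threshold, 12 newly passed it, 6 no longer passed it and 4 changed sign. The number of genes called lower in RT112 was 3, and 5 with edgeR on each line alone, with DESeq2 on each line alone and with the replicate block, through DNMT3A and TET3. In TCCSUP it was 5, and 3 with at least 10 counts required in every library, a filter that removed TET1 and under which DNMT3B was not called. It was 7 with edgeR on each line alone and with the replicate block, 6 with DESeq2 on each line alone and 4 with library size alone. The stricter threshold left 2 genes in 253J and 0 in J82, RT112 and TCCSUP. TET2 in J82, near 0 throughout, changed sign to 0.0441 with DESeq2 size factors, 0.0441 with DESeq2, 0.0971 with library size alone and 0.0656 with the 10-count filter.

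Leaving out single libraries gave −0.27 to 0.23 for TET2 in J82 and −0.26 to 0.35 for DNMT3A in J82. It gave 5 to 6 genes lower in 253J, 3 to 3 in J82, 2 to 4 in RT112 (2 without CM-1758 replicate 2) and 4 to 5 in TCCSUP, with 0 higher in each line. Where a group was left with 1 library, that library was assumed to vary like the other groups.

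The replicate block, for numbers that were not shown to pair the libraries, also lost TET2 in 253J (adjusted p = 0.0560) and called DNMT1 and TET3 in TCCSUP. 253J shares only 1 number between its arms. With TET1 compared over 3 lines, chosen after the data were seen, the number of genes whose effect differed stayed 6. With 2 libraries per group, a value not called here is not shown to be absent. The simulation does not tell how often changes were missed here, since far fewer of its genes were changed than in the real data.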
